A study of Mus musculus with 4 samples.

Results

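The cluster described here is a 40-kb window of mouse chromosome 14, chr14:24900001-24940000 in the mm9 build, from which MILI-bound small RNAs came almost entirely on the plus strand. Its members are all listed sequences whose 5′ end lies in that window, 7526 of the 4906138 sequences in the deposited list, or 0.153%. The window was chosen by its number of listed sequences, so that number and its rank are descriptions only. It was the 8th fullest of the 510 clusters formed by joining neighbouring 20-kb windows with at least 1000 sequences. The RNAs had been immunoprecipitated with MILI from C57BL/6 testes taken 14 days after birth, 2 libraries being from heterozygous Tdrd9+/- animals and 2 from Tdrd9-/- animals, which lack the helicase TDRD9. The list pools the 4 libraries and holds each distinct sequence once, with no read count and no library label. No genotype comparison and no replicate error can therefore be had, and the depth of each library is unknown. Shares below are shares of distinct sequences, with exact Clopper-Pearson 95% intervals in brackets that cover counting error only. The intervals take sequences as independent. Sequences that share a 5′ end also share their first base, so intervals for 5′ U over sequences are too narrow.

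PIWI-interacting RNAs (piRNAs) are small RNAs of germ cells that guide PIWI proteins such as MILI (Piwil2) to transposon and other transcripts. Many are cut from long single-stranded precursors transcribed from clusters, and these primary piRNAs usually begin with U. When a PIWI protein slices a target, a new piRNA can form on the opposite strand whose first bases pair with those of the guide across 10 nt, an amplification known as the ping-pong cycle. TDRD9 is a Tudor-domain helicase of the piRNA pathway in the male germline.

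The stretch below shows what the list looks like at the level of bases, and it was chosen because it holds the only GENCODE gene that any member matched. It is chr14:24908017-24908166 of mm9, plus strand, read from the overlapping listed sequences, with a capital at every base that is the 5′ end of at least 1 listed sequence.

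Covered stretch: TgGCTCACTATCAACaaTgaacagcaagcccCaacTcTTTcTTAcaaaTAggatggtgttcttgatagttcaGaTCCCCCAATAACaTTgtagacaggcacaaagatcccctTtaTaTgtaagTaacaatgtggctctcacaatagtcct

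In these 150 nt, 44 positions were 5′ ends and 138 sequences started. Of the 41 U bases 20 were 5′ ends, and of the 109 other bases 24 were. The 5′ ends bunched in runs, with stretches between them where sequences passed through but none began.

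The members matched 1 GENCODE gene, the microRNA gene Mir7210, so the cluster is not wholly unannotated. Exact comparison of all members with the transcripts of GENCODE release M21 (GRCm38) found 25 matches, 0.332% of members, and all 25 were sense to Mir7210 (ENSMUSG00000105723.1, plus strand, chr14:24088877-24088930 in GRCm38). The RefSeq hairpin of 54 nt is printed next, with the annotated 5p and 3p microRNAs in capitals, followed by listed sequences that begin where they begin.

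Mir7210 hairpin: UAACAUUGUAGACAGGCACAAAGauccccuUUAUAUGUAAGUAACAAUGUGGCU

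Listed at the 5p start, shortest: Taacattgtagacaggcacaaag

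Listed at the 5p start, longest: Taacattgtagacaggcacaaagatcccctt

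Listed at the 3p start: ttatatgtaagtaacaatgtggctCT

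In the 5p pair the capital is the 5′ base, and in the last sequence the capitals are bases beyond the end of the hairpin. The first base of mmu-miR-7210-5p fell at mm9 position 24908099, 1 of the 3 fullest 5′ ends of the whole cluster. This end had 9 listed sequences, 1 of every length from 23 to 31 nt, and the shortest of them was identical to the annotated 23-nt microRNA. The first base of mmu-miR-7210-3p, at hairpin position 31, was also a listed 5′ end, with 1 sequence of 26 nt and none equal to the annotated 24-nt form. The 25 sequences lying wholly inside the hairpin had a median length of 28 nt, and 24 of them were 24 nt or longer. Gel elution had been aimed at about 28 to 30 nt, so shorter, microRNA-sized forms would be under-represented. Listed sequences did not stop at the hairpin's borders: 52 overlapped it, from 19 different 5′ ends, and 27 of these 52 crossed one of its borders. No minus-strand sequence overlapped it. Around the 5p start the sequences began at nearly every base: 5 began 1 nt before it, 5 began 1 nt after it and 4 began 2 nt after it.

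**Figure D1:**
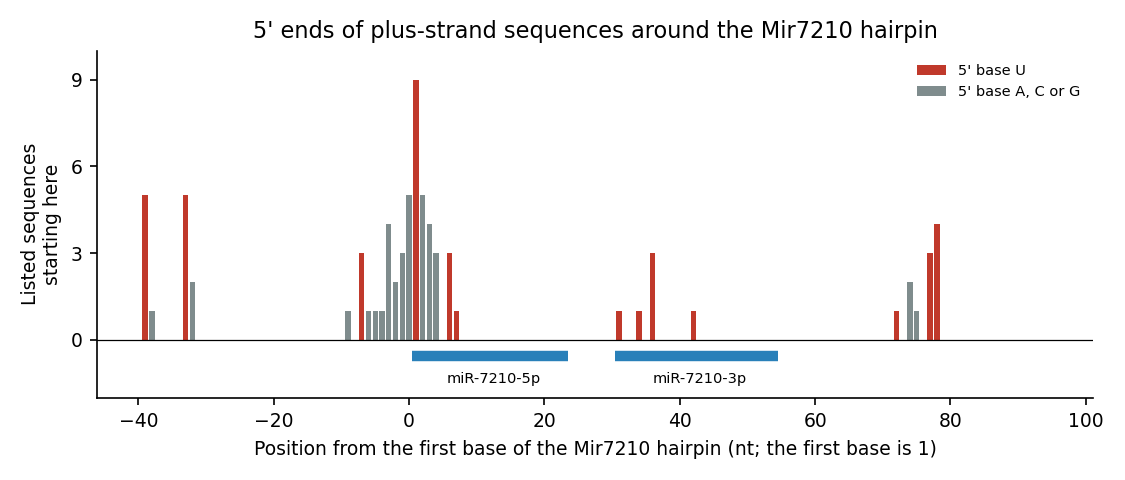
Number of plus-strand listed sequences starting at each position from 40 nt before to 40 nt after the Mir7210 hairpin (x axis, nt from its first base; red, 5′ base U; grey, another 5′ base; blue bars, the annotated microRNAs). The tallest bar, 9 sequences, stands on the first base of miR-7210-5p, with lower bars on both sides of it, and 1 sequence starts on the first base of miR-7210-3p.

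Other RefSeq hairpins were also matched, and Mir7210 was among the fuller ones. Of 997 hairpin sequences searched, 233 had at least 1 listed sequence lying wholly inside, and 3 had more than the 25 of Mir7210. The 927 sequences inside the other hairpins had a median length of 26 nt, and 88.0% of them were 24 nt or longer, against 96.0% in Mir7210. Long forms thus made up most of both, and the difference between the shares was not tested.

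Few listed sequences matched transcripts of the neighbouring GENCODE genes, and a RefSeq noncoding gene appears to lie within the span of the members. GENCODE M21 positions on GRCm38 were read only for genes picked by name, so a nearer gene could have been missed. Among these, the nearest on the left of Mir7210 was the lincRNA Gm31392 (minus strand, chr14:24044343-24075908), which ended 12969 nt away. The nearest of them on the right was Dlg5, which encodes a scaffold protein of the membrane-associated guanylate kinase family (minus strand, chr14:24133953-24245920), 45023 nt away. RefSeq additionally places the long noncoding RNA gene Gm52142 between Mir7210 and Dlg5, at chr14:24111113-24120165 on GRCm38.p6, 22183 nt beyond the hairpin. It runs from 22236 to 31288 nt after the Mir7210 start. Whether GENCODE M21 holds Gm52142 is not shown here, and no member matched a transcript of that name in it. The strand of Gm52142 was not available, and its RefSeq transcript was not compared with the members. In mm9 the members ran from 7568 nt before the Mir7210 start to 31667 nt after it, a range that takes in the distances of Gm52142, though each distance was measured in its own build. Only transcript sequences were compared, so any listed sequences from introns of these genes were not counted. Gm31392 had 1 sense sequence, on the minus strand at position 24893369. Dlg5 had 12 sense sequences, on the minus strand between 24953314 and 25009667. It had 26 antisense ones, on the plus strand between 24953622 and 24967793, which was the same strand as the cluster. On the left, 17 plus-strand sequences between 24889156 and 24889775 matched the processed pseudogene Gm6158, and all 17 also matched transcripts of Cnot1, a subunit of the CCR4-NOT deadenylase complex.

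On the plus strand the sequences began abruptly and thinned out slowly. The 40 bins of 1 kb held from 7 to 202 distinct 5′ ends, with a median of 96.5. The first bin held 7 ends, the next 95 and the one after it 187. The 3 fullest bins followed one another: 24902001-24903000 with 187 ends, 24903001-24904000 with 202 and 24904001-24905000 with 190. The density was lowest in the interior between 24917001 and 24918000, where 30 ends and 51 sequences were listed, and stood at 137 ends again between 24930001 and 24931000. These last bins were picked out after their values were seen. The last 2 bins of the window held 29 ends each.

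**Figure D2:**
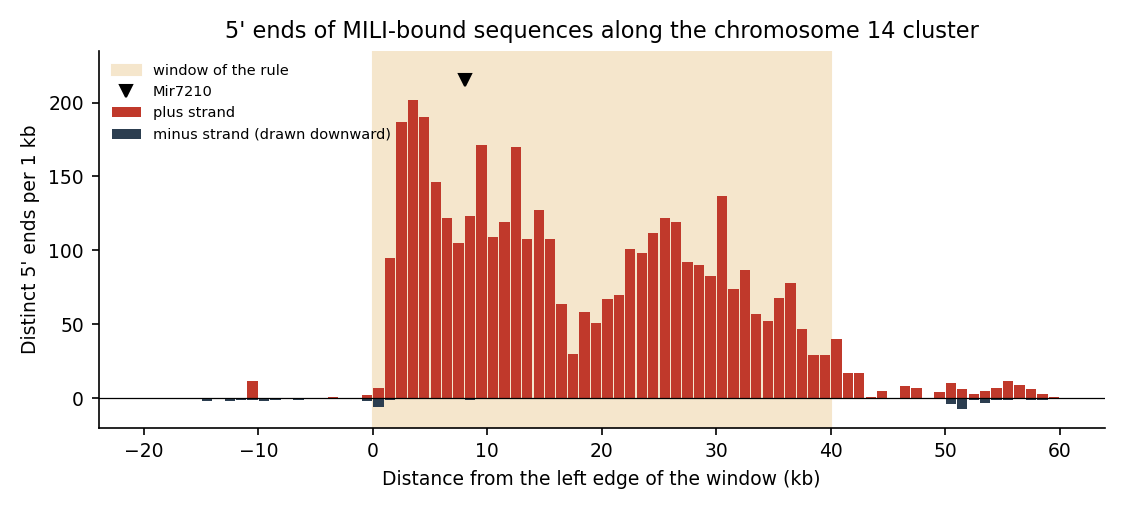
Distinct 5′ ends per 1 kb along the window and the 20 kb on either side (x axis, kb from the window's left edge; red upward, plus strand; dark downward, minus strand; the triangle marks Mir7210). The plus-strand ends go from 7 in the first kb to 202 in the 4th, drop to 30 in the 18th and fall to 29 at the right edge, with few ends on the minus strand.

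The edges of the window cut into little on the left and into a thin tail on the right. The outermost plus-strand member ends were at 24900531 and 24939766, and the nearest plus-strand ends outside were at 24899761 and 24940119. The 20 kb to the left held 21 plus-strand sequences at 15 ends, 17 of them the Gm6158 matches. The 20 kb to the right held 212 at 161 ends. Of these, 142 lay in the first 10 kb and 70 in the next 10 kb, and 16 of the 212 matched Dlg5 transcripts in antisense. The share that began with U was 85.2% in the first 10 kb beyond the window and 88.6% in the next.

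The minus strand held 9 members at 8 ends, and 8 of the 9 lay at the left edge, before the dense part of the plus strand. The plus strand was thus carried by 99.9% of members (99.8–99.9%). The 3 minus-strand sequences that follow were taken from the outermost, the next and the innermost position of that left group, with the 5′ base in capitals.

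Minus strand, 5′ end at 24900216: Tgattttgagagtcagattgttttattt

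Minus strand, 5′ end at 24900670: Tgaggactaagctttatcgagctacatac

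Minus strand, 5′ end at 24901187: Tgactgtttaactgcaacctttggctg

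The next plus-strand sequence to the right of them began at 24901346 with a different base.

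Plus strand, 5′ end at 24901346: Gccgcttggctgtggaaaagagcagag

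From the last of these minus-strand ends to this plus-strand end there were 159 nt. In the 1 kb starting at 24901346 there were 251 plus-strand sequences at 122 ends, whereas the 1 kb before it held 14 at 10 ends. Those 14 were all the plus-strand members before that position, so the 2 strands were sparse and interleaved at the left edge and only the plus strand was dense further on. Of the 9 minus-strand members 6 began with U (66.7%, 29.9–92.5%). The ninth, a 30-nt sequence, stood alone inside the dense part at 24908034.

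Pairing between strands was limited by this lack of minus-strand ends. Pairs of opposite 5′ ends overlapping by 1 to 20 nt numbered 16, of which 1 overlapped by 10 nt. That pair joined the plus-strand end at 24908025, which had 6 sequences, to the lone minus-strand end at 24908034. The same minus-strand end took part in 15 of the 16 pairs, because it lies opposite a run of 13 neighbouring plus-strand ends from 24908019 to 24908031, the run that opens the stretch printed above. With 8 minus-strand ends in all, no excess at 10 nt was detectable.

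The plus-strand sequences had a U at the 5′ end far more often than the cluster's own base content gives. The 7517 plus-strand sequences started at 3904 distinct positions and covered 28731 of the 39261 bases from the first to the last of them, 73.2%. Of the sequences, 72.5% (71.5–73.5%) began with U, 11.2% with A, 8.23% with G and 8.04% with C. Over distinct sequences the share of U was slightly higher in the rest of the list, at 75.45% (75.41–75.49%), so a 5′ U was not particular to this cluster. These shares are weighted differently, since the whole list had 1.42 sequences per end and the cluster 1.93. Counted once per end, 64.5% (63.0–66.0%) of the cluster's plus-strand ends were U, and that share is not given for the whole list. The covered bases themselves were 26.7% U, 28.8% A, 22.8% G and 21.7% C. Of 7682 covered U bases, 2518 (32.8%, 31.7–33.8%) were a 5′ end. The same held for 6.77% of A bases (6.24–7.34%), 6.80% of C (6.18–7.45%) and 6.14% of G (5.58–6.75%). A, C and G were thus used at rates whose intervals overlapped. By construction every 5′ end is a covered base, so these rates are relative to bases that MILI-bound sequences touched and not to the whole window.

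The bases around a U went with how often it was used. A U followed by A was a 5′ end in 44.2% of cases (41.7–46.7%) and one followed by G in 39.0% (37.02–41.1%). For a U followed by C the share was 26.03% (23.97–28.2%) and for one followed by U 24.6% (22.8–26.6%). With A at position 5 the share was 46.1% (43.9–48.3%), against 28.9% to 31.2% with another base there. The base before the U also differed, with 37.4% (35.1–39.7%) after A and 19.3% (17.3–21.5%) after G. A at position 5 made up 41.2% of bases at that position, the highest share of A at any position from 1 to 24. A U whose neighbour at the given position was not covered was left out, so each position was read over a different set of U bases. Shares should therefore be compared within a position only. Neighbouring positions overlap in these counts, and no test was made of them.

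Ends with more listed sequences began with U more often. Of the 2102 ends with a single sequence, 53.0% (50.8–55.1%) were U. The share was 72.3% (69.1–75.3%) of the 815 ends with 2 sequences, 79.3% (75.3–82.9%) of the 464 with 3 and 85.5% (82.2–88.4%) of the 523 with 4 or more. The number of sequences at an end counts different 3′ ends and is not a read count. Of the fullest ends, 16 of 17 with 7 sequences, 3 of 4 with 8 and 3 of 3 with 9 were U. The share with 8 was 75.0% (19.4–99.4%), below that with 7, and these ends are too few for a narrow interval.

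**Figure D3:**
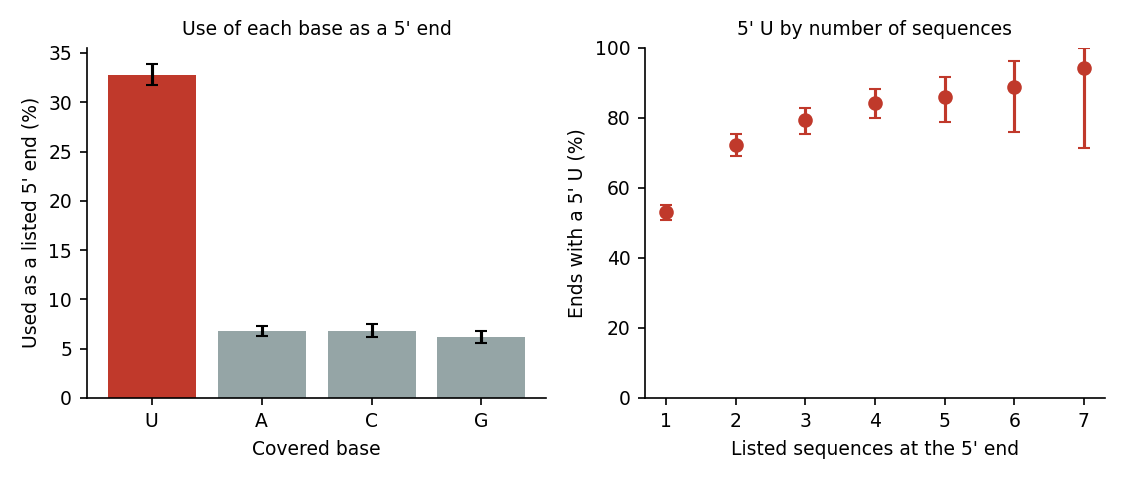
Left, share of covered bases of each kind that are the 5′ end of a listed plus-strand sequence (%); right, share of 5′ ends that are U (%) by the number of listed sequences at the end, from 1 to 7. Bars and points are shares and error bars exact 95% intervals for counting error. U stands at 32.8% on the left against 6.14% to 6.80% for the other bases, and the share of U goes from 53.0% at ends with 1 sequence to 94.1% at ends with 7.

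Of the 7 ends with 8 or more sequences, 5 are printed below to show how the sequences of 1 end differ at the 3′ end. The 4 ends with 8 sequences were tied, and the 2 with the lower positions were taken. Each line gives the longest listed sequence, with the bases that the shortest one lacks in capitals.

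24901655: taagaatagtcttaagatacagTGGAACCC

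24907638: ttgggaatttgtagcggttaaaCCATTCC

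24907639: tgggaatttgtagcggttaaaCCATTCCC

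24908099: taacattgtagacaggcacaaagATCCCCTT

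24909863: tgttgactgaaccaatgcatTACTCTGAG

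The ends at 24901655, 24908099 and 24909863 had 9 sequences each, and those at 24907638 and 24907639 had 8 each. These 5 began with U, the last of the 8-sequence pair being 1 nt further on in a UU. Of the tied ends not printed, the one at 24908027 was a U and the one at 24908029 an A. At the 5 printed ends the shortest sequences were 20 to 23 nt long and the longest 29 to 31 nt. Over all 1802 ends with more than 1 sequence, the lengths formed an unbroken series in 1358 (75.4%). The 7517 sequences had 5387 distinct 3′ ends against 3904 distinct 5′ ends, so 1.40 sequences shared a 3′ end on average and 1.93 shared a 5′ end.

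Bases other than U were used as 5′ ends more often close to full ends. There were 69 ends with 6 or more sequences. Of the bases other than U that lay 1 to 5 nt from such an end, 44.8% (40.1–49.6%, 433 bases) were themselves 5′ ends. At 6 to 10 nt the share was 15.6% (12.04–19.8%), at 11 to 50 nt 7.26% (6.19–8.45%) and beyond 50 nt 5.38% (5.05–5.72%). Most such bases lay far from a full end. With full ends left out, 18130 were beyond 50 nt. Nearer to a full end, 433 lay at 1 to 5 nt, 358 at 6 to 10 nt and 2121 at 11 to 50 nt. Most ends on such bases were therefore also beyond 50 nt, 975 of the 1379 that were not themselves full ends (70.7%). That count goes with the number of bases at that distance, where the share used was lowest. For U bases the shares over the same distances were 82.2%, 57.1%, 34.9% and 30.7%. For both kinds of base the share was lower at each greater distance. Runs of neighbouring 5′ ends were the extreme case, and the 2 longest had 19 positions each. They are printed here with a capital at each 5′ end.

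chr14:24903400-24903448: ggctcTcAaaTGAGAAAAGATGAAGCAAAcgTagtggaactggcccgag

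chr14:24909845-24909893: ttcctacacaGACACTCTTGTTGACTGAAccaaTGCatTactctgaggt

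The first run, from 24903410 to 24903428, gave 74 sequences, and only 2 of its 19 bases were U. Its fullest end, with 7 sequences, stood on 1 of these, at 24903420. The other run, from 24909855 to 24909873, gave 58 sequences and had 6 U among 19 bases, its fullest end being the 9-sequence end at 24909863. In 4 of the 6 longest runs the fullest end was a U, and in the other 2 a U was tied with another base.

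Lower shares at the greater distance were also found in the 3 fullest other clusters that had at least 95% of their sequences on 1 strand. Within 5 nt of an end with 6 or more sequences, 50.6% of bases other than U were 5′ ends in the chromosome 10 cluster, 59.4% in the chromosome 7 cluster and 36.8% in the chromosome 2 cluster. Beyond 50 nt these shares were 7.53%, 7.94% and 5.11%. The chromosome 14 cluster lay between the chromosome 2 cluster and the other two at both distances.

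The share of 5′ U was higher in the right part of the cluster than at its left edge, where the ends were denser. In the first 4-kb stretch 64.9% of sequences (62.03–67.7%) began with U, and in the last of the 10 stretches 77.9% (72.8–82.4%). The first 3 stretches lay between 64.9% and 70.2%, the next stood at 73.9%, and the last 6 between 75.04% and 77.9%. Covered U bases were used as 5′ ends in 43.5% of cases in the first stretch and 23.4% in the last. For the other bases the share went from 11.2% to 3.54%, a larger relative fall. The first stretch had 2.27 sequences per end and the last 1.66. The U content of the covered bases was 24.2% in the first stretch and 27.6% in the last. Among ends with a single sequence the share of U was 42.6% in the first stretch and 63.6% in the last, and among ends with 2 or more it was 66.04% and 83.6%. The part of density and of base content in this difference was not tested.

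**Figure D4:**
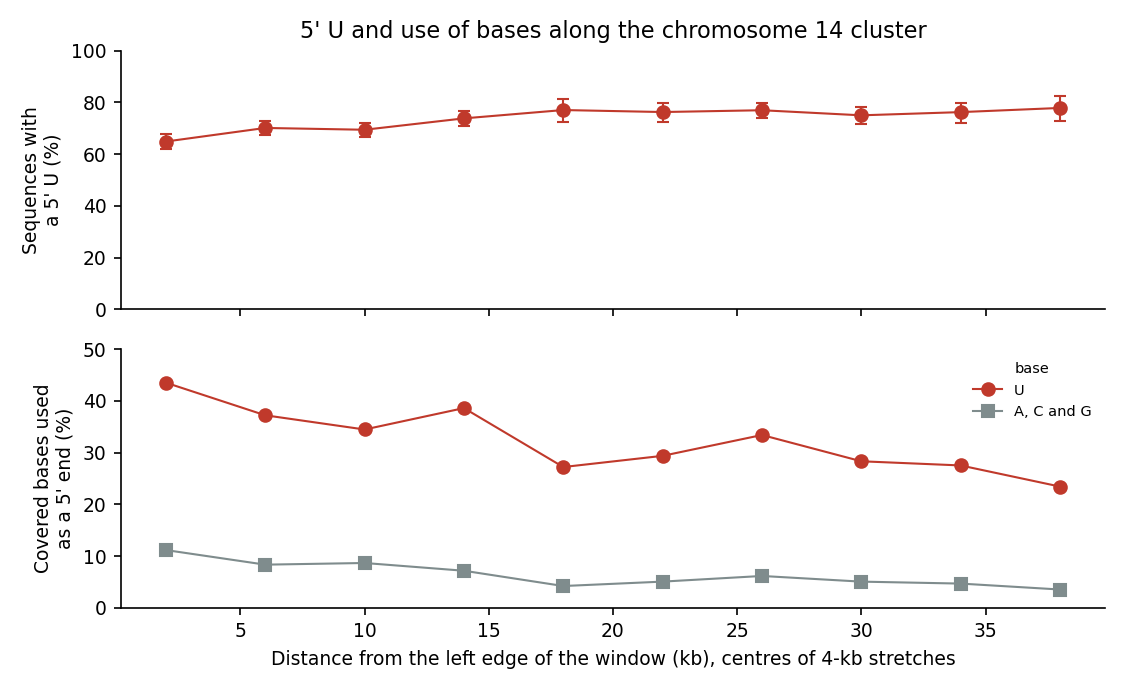
Top, share of plus-strand sequences with a 5′ U (%) in 10 consecutive 4-kb stretches, with exact 95% intervals for counting error; bottom, share of covered U bases (red) and of covered A, C and G bases (grey) that are 5′ ends (%). The upper points go from 64.9% to 77.9% while both lower lines fall, from 43.5% to 23.4% and from 11.2% to 3.54%.

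The lengths were those of MILI-bound piRNAs after gel elution. Plus-strand members were 18 to 31 nt long, and 98.8% were 24 to 31 nt. The commonest length was 27 nt, and the mean was 27.2 ± 1.46 nt (SD over the 7517 sequences). The class of 28 to 30 nt held 43.1% of them (42.0–44.2%), against 37.1% of the whole list. At 26 nt the cluster held 19.6% and the whole list 24.3%, and at 29 nt 15.5% and 11.8%. Shorter lengths were also commoner in the cluster, with 1.61% against 0.891% at 24 nt and 7.05% against 6.51% at 25 nt. The whole list had a mean of 27.1 ± 1.31 nt, so the cluster's lengths were more spread with nearly the same mean. In the chromosome 10, 7 and 2 clusters the SD was 1.47, 1.46 and 1.41 nt. The 5′ U share was 70.1% (68.1–72.1%) for 24 to 26 nt and 75.2% (73.7–76.7%) for 28 to 30 nt.

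**Figure D5:**
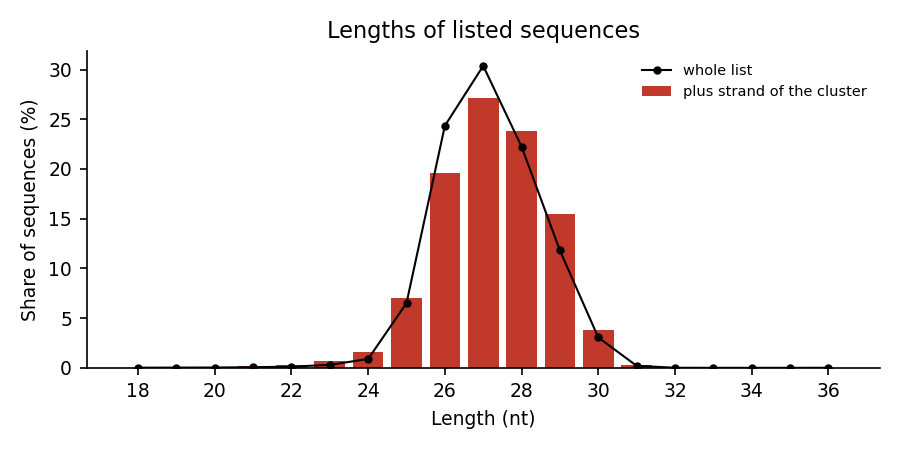
Share of sequences (%) by length (nt) for the plus strand of the cluster (red bars) and the whole list (black line). Both peak at 27 nt. The cluster holds more of its sequences than the whole list at 24, 25, 28 and 29 nt, and fewer at 26 and 27 nt.

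Neither the mark of slicing nor that of stepwise cutting stood out on the plus strand. A was at position 10 in 31.3% of sequences (30.3–32.4%), against 31.5% on average over positions 11 to 20, where it ranged from 29.4% to 32.5%. The share was 30.8% (29.6–32.1%) in sequences with a 5′ U and 32.6% (30.5–34.6%) in those without. A 5′ end stood directly after a listed 3′ end in 675 pairs, against a mean of 708 over the distances of 2 to 20 nt, a ratio of 0.954. The base after a 3′ end was U in 27.1% of cases (25.9–28.4%), where that base was covered, close to the 26.7% U of all covered bases. Each distinct end was counted once and 3′ ends can be trimmed after cutting, so these values do not show that stepwise cutting was absent.

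Few of the cluster's 5′ ends shared their first 20 nt with another listed position. Of the cluster's 3912 ends on both strands, 6 (0.153%) had a first 20 nt that was listed at another position too. The list holds each distinct sequence once, and the same share over the whole list is not given here. The low share is therefore not shown to be particular to the cluster. One of the 6 ends, at 24934084, shared its first 20 nt with 22 other listed positions, over 13 chromosomes in all, and it begins as follows.

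First 20 nt at 24934084: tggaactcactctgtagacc

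The other 5 recurred at 1 further position each. Of 20919 distinct 20-mers in the covered bases of the plus strand, 3 occurred at 2 places, all in 1 overlapping group at 24908061 and 24925325, and none occurred in inverted form. Elsewhere in the list, 14 sequences on 9 chromosomes held the exact complement of 20 nt of a plus-strand member, and 3 of the 14 were complementary to sequences around the recurring end at 24934084. How sequences with several genome matches were handled is not known, and each sequence is listed once, so recurring ends may be under-counted. Repeats within the window may also be among its uncovered bases. The 26.8% of bases without cover fell into 410 gaps with a median of 15 nt, of which 14 were longer than 100 nt. The longest gaps were 276 and 242 nt, both at the sparse left edge. Within the dense part the longest was 222 nt, from 24919601 to 24919822. The longest unbroken cover was 436 nt, from 24906258 to 24906693.

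Set beside the 3 other clusters, the chromosome 14 cluster was nearest the chromosome 2 cluster in 5′ U, use of A and cover. It was nearest the chromosome 10 cluster in use of U, and the chromosome 7 cluster in sequences per end. The clusters were chr10:82820001-82960000 with 19234 sequences, chr7:6520001-6620000 with 17004 and chr2:92380001-92440000 with 10910. The main strand held 99.8%, 99.9% and 99.3% of their sequences, against 99.9% on chromosome 14. High shares were fixed in advance here, since the 3 were picked for having at least 95% on 1 strand. Of all 510 clusters, 341 had at least 95% on 1 strand, and 112 had a higher main-strand share than the chromosome 14 cluster. A 5′ U was carried by 66.7% (66.02–67.4%) on chromosome 10, 64.3% (63.6–65.02%) on chromosome 7 and 74.8% (74.02–75.7%) on chromosome 2, and the 72.5% of chromosome 14 lay between them. U bases were used as 5′ ends in 33.0%, 34.9% and 32.2% of cases, close to the 32.8% on chromosome 14. A bases were used in 10.6%, 12.3% and 6.99%, against 6.77%. The values for A were thus further apart than those for U. Sequences per end were 1.88, 1.95 and 1.89, and main-strand cover of the span was 47.1%, 51.9% and 71.8%, against 1.93 and 73.2% on chromosome 14. None of these differences was tested, since the list has no replicates and sequences of 1 cluster share their source.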

How the data were processed

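MILI-bound RNAs of 2 Tdrd9+/- and 2 Tdrd9-/- testis libraries were immunoprecipitated, eluted at about 28 to 30 nt and made into libraries with an Illumina small RNA kit, per the labels' protocols. The authors' table, with 5 columns per the file headers, gives each distinct sequence and its 1-based position, without counts. Positions are in mm9, as the submitters' processing notes state, with aligner and filters not given in the sources used here. Library depth is unknown, so intervals cover counting error over distinct sequences only.

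Members, lists and alternatives were chosen with earlier results of these data known. The rule for named items took the 5 fullest ends, the edges, the 3 fullest bins, the longest gap, ends paired at 10 nt, genes at or next to the members and the 3 fullest other clusters on 1 strand; others were chosen after their values were seen. Bases were read from overlapping sequences. Transcripts of GENCODE M21 and RefSeq hairpins (GRCm38.p6) were matched exactly, and no coordinate was converted. Counting was tested on simulated data. Intervals came from scipy 1.17.1, figures from matplotlib 3.10.9 and tables from pandas 2.3.3 with numpy 2.4.6, under Python 3.11.15.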

Additional observations from a re-analysis of the deposited data

How the results depend on the processing

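Of 24 alternatives over 7 results, 17 gave a value within the counting interval of the reported one and 7 did not. Counting distinct 5′ ends in place of sequences gave a 5′ U share of 64.5% and a mean length of 27.3 nt. Keeping sequences of 24 to 31 nt left 98.8% of the plus-strand sequences and gave a mean length of 27.3 nt. Keeping only the left 20 kb of the window, the fuller side, gave a 5′ U share of 70.05%, A at position 10 in 30.1%, 2.01 sequences per end and 76.5% of bases covered. Leaving out ends that recur in the list kept the 5 results it was run for within their intervals. These were strand, 5′ U, A at position 10, length and sequences per end. Only 6 of the cluster's 3912 ends were removed by it, so these results could hardly move and the check is weak. The ratio of 10-nt pairs to other overlaps was 1.27 and rests on 1 pair, so no alternative was run for it. No paired analysis was possible because the list has no column for any library, and for the same reason no replicate could be left out. Depth limits every share here: an abundant and a rare RNA count alike.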
